A study of Arabidopsis thaliana and Cucumis sativus and Glycine max with 60 samples.

Results

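The plastid genome of Arabidopsis thaliana was followed through 3 zones of the seedling root tip, using every Arabidopsis row of the deposited expression table whose ID starts with ATCG. There were 133 such rows among 33550 Arabidopsis rows. Of these, 89 were above 0 in at least 1 library, 26 were above 0 in all 9 libraries, 13 were above 0 in 1 library only, and 44 were listed at 0 throughout. The RNA came from primary roots of cultivar Columbia at 4 days after plating, grown in constant light on agarose medium. The meristematic zone (MZ), the elongation zone (EZ) and the differentiation zone (DZ) were dissected from the growing tip, and each had 3 libraries, written here as MZ1 to MZ3, EZ1 to EZ3 and DZ1 to DZ3. No genotype, treatment or transgene separated the groups. Whole zones were cut, so fewer cells of a type and less RNA per cell cannot be told apart. The labels give total RNA and an Illumina kit, and do not say whether polyadenylated RNA was selected.

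Plastids keep a small genome of their own. It encodes subunits of the photosystems, the cytochrome b6f complex, the ATP synthase, the NDH complex and Rubisco, part of the plastid ribosome, the subunits of a bacterial-type RNA polymerase (PEP), and a few enzymes, of which accD serves fatty acid synthesis in all plastids, green or not. Nuclear genes supply the other subunits, the sigma factors that PEP needs, its associated proteins, and a separate phage-type polymerase. In roots plastids are mostly not green. Plastid transcripts do not rely on long poly(A) tails for stability, and a short tail marks them for decay, so that a library built on poly(A) RNA is a poor guide to their amount.

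The table names no plastid gene. RPKM stands for reads per kilobase, scaled to the number of mapped reads. The deposited values were modelled with an effective length in place of the gene length. It is smaller than the gene length and raises RPKM steeply in short genes. A value that comes from whole reads then has a fixed step for each gene length. This step was used to recover both the number of reads and the gene length behind each row. Lengths were then compared with those of the 129 plastid genes of RefSeq. In this way 54 of the 89 rows above 0 were given 1 gene name, 18 fitted a length shared by several genes, 8 were not decided, and 9 fitted no length. The names are inferences from length, not labels. Notes elsewhere in the RefSeq annotation pair 6 of the IDs with a product, and the 5 of these that were above 0 had received the corresponding gene, ndhK under its older description as photosystem II protein G. Rows without a name are given by ID.

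A pair of short genes show how little sequence and how few reads lie behind some values. They are printed as the whole coding sequence, 5′ to 3′ in the sense strand, from RefSeq build TAIR10.1, with the start and stop codons in capitals. psaJ, a small subunit of photosystem I, lies at Pltd:66929-67063 on the plus strand, and rpl32, a protein of the large ribosomal subunit, at Pltd:113449-113607 on the plus strand.
psaJ: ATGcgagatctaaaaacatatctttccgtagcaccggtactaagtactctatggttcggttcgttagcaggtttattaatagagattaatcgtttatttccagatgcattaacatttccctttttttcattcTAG
rpl32: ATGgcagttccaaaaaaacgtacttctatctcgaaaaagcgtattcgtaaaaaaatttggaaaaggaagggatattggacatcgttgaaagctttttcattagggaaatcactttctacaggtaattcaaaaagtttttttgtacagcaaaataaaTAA
The psaJ sequence is 135 bases long and received 6 reads in all 9 libraries together. The rpl32 sequence is 159 bases long and received 42 reads, and adenine makes up 39.6% of it against 26.7% of psaJ.

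Plastid reads were scarce in every library. Depth, recovered from nuclear genes, ran from 8.49 to 9.49 M reads (M for 10 to the power of 6) among MZ1, EZ1 and DZ1 and from 23.4 to 30.7 M among the remaining 6 libraries. Over rows with a fitted length, plastid reads numbered 389, 410 and 290 in MZ1 to MZ3, 257, 391 and 3099 in EZ1 to EZ3, and 150, 204 and 145 in DZ1 to DZ3. EZ3 alone therefore held 58.2% of the 5306 such reads on protein-coding plastid genes.

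Scaled to depth and over rows with a fitted length, the MZ libraries held 43.0, 13.3 and 12.2 plastid reads per M reads. The EZ libraries held 27.1, 14.9 and 114, and the DZ libraries 17.7, 7.42 and 6.21. The exact 95% Poisson interval of the highest, EZ3, was 110 to 118 and that of the lowest, DZ3, was 5.24 to 7.31; these intervals cover counting error only. Within each replicate number the DZ library was the lowest, but the libraries numbered 1 were above those numbered 2 in all 3 zones, and the zones overlapped. The mean was 22.9 ± 17.5 in the MZ, 52.0 ± 54.1 in the EZ and 10.4 ± 6.29 in the DZ (SD, n = 3 each). The differences in mean log2 were 0.91 for EZ against MZ (two-sided exact permutation test over libraries, p = 0.5), -1.94 for DZ against EZ (exact p = 0.2) and -1.04 for DZ against MZ (exact p = 0.3), where 3 against 3 cannot go below 0.1. Taken within replicate numbers, DZ was 1.80 to 2.44 times lower than MZ and 1.53 to 18.4 times lower than EZ in all 3 numbers (exact sign-flip permutation over pairs, p = 0.25 for each, the smallest that 3 pairs can give), and EZ was above MZ in 2 of 3.

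**Figure D1:**
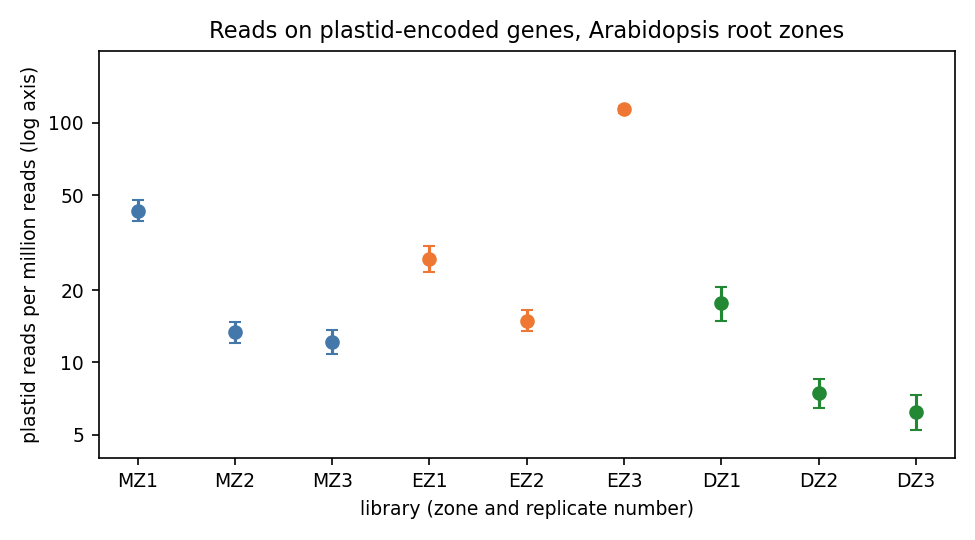
Plastid reads on rows with a fitted length, per M reads (log axis), in each of the 9 libraries. The exact 95% Poisson intervals cover counting error only. EZ3 stands at 114, and the other 8 libraries lie between 6.21 and 43.0.

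The summed RPKM of the 69 protein rows also had its highest value in EZ3. It was 316, 86.0 and 123 in the MZ, 221, 85.7 and 970 in the EZ, and 210, 92.3 and 35.4 in the DZ. Here DZ2 was above MZ2 and EZ2, unlike in reads scaled to depth. Short rows with few reads weighed heavily in the sum. In EZ3 the 114-base rows ATCG00510, ATCG00760 and ATCG00065 gave 243, 171 and 162 RPKM on 27, 19 and 18 reads. In DZ2 ATCG00065 and ATCG00600, of the same length, gave 17.8 RPKM each on 2 reads each. On the log2 scale EZ minus MZ was 0.82 (exact permutation p = 0.7), DZ minus EZ was -1.58 (exact p = 0.4) and DZ minus MZ was -0.76 (exact p = 0.5). None could reach 0.05 in this design, and the zones overlapped in each comparison. Without EZ3 the first became -0.12.

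Ribosomal and transfer RNA hardly appeared. All plastid rRNA genes and some tRNA genes occur at 2 places in the plastid genome. How reads with several such places were counted is unknown, and its part in these low values was not tested. Plastid rRNA rows with a decided length received 7 reads and tRNA rows 22 reads over all 9 libraries. Undecided rows whose shortest fitting length was that of rRNA (2 rows) or tRNA (4 rows) would add 2 and 4 reads at that length. The 2 rows that fitted rrn23S, the RNA of the large ribosomal subunit, had 3 and 4 reads. Of the 4 nuclear rRNA rows in the table, 2 were listed at 0 in every library, 1 (AT2G01010) did not pass 0.413 RPKM, and 1 (AT3G41768) ranged from 123 to 690 RPKM. A tRNA gene of 73 bases, ATCG00010, shows what the effective length does to RPKM in such short rows: single reads in MZ1 and EZ1 gave 143 and 136 RPKM.

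The inverted repeat of the plastid genome carries some genes in 2 identical copies. In RefSeq 31 of the 129 plastid genes, among them all rRNA genes and some tRNA genes, occurred at 2 places in full. The 5 protein names among these, ndhB, rpl2, rpl23, rps7 and ycf2, matched no row above 0, whereas 51 of the 73 protein names with 1 copy did. How reads with several equally good places were counted is unknown from the labels.

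The reads on named protein genes were led by ycf1, accD and rpoB, and the order depended on EZ3. ycf1, which encodes a component of the protein import machinery of the inner envelope, had 740 reads, accD 575, rpoB 396 and rpl16 272. Without EZ3 the order was rpoB with 298 reads, ycf1 with 240, accD with 165 and rbcL, a photosynthesis gene, with 120, and rpl16 had 80. Per kilobase of coding sequence, among the named genes, rpl16 had 667 reads over the 9 libraries, rpl14 401, accD 392 and clpP 313. Without EZ3 the values were 196, 154, 112 and 130, and rpl32 had 201. psbA, encoding the D1 reaction centre protein of photosystem II, had 118 reads per kilobase, and rbcL, encoding the large subunit of Rubisco, had 110.

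accD encodes the carboxyltransferase beta subunit of plastid acetyl-CoA carboxylase. It had 2.36, 0.283 and 0.2996 RPKM in MZ1 to MZ3, 2.92, 1.24 and 11.9 RPKM in EZ1 to EZ3, and 1.68, 0.374 and 0.372 RPKM in DZ1 to DZ3. EZ3 stood above every other library, on 410 reads against 9 to 41. Its zones overlapped, and the limma adjusted p was 0.0859 for EZ against MZ, 0.0838 for DZ against EZ and 0.947 for DZ against MZ.

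The 4 subunits of PEP were all detected. rpoB, the beta subunit, was the steadiest: 1.65, 0.658 and 1.09 RPKM in the MZ, 0.664, 0.443 and 1.196 RPKM in the EZ, and 0.547, 0.265 and 0.341 RPKM in the DZ. All 3 DZ values were below all 3 MZ values, with a change of -0.60 ± 0.23 (SE) on the log2(RPKM + 1) scale and a limma adjusted p of 0.0357, short of the 2-fold that a call required. rpoB passed the filter on low values (1 RPKM in 3 or more libraries) only through MZ1, MZ3 and EZ3. The p is therefore no independent support for a fall. rpoC1 and rpoC2, the beta-prime and beta-double-prime subunits, had 10 to 24 and 17 to 34 reads a library in the MZ and 0 to 9 and 1 to 7 in the DZ. In both, all DZ libraries were below all MZ and all EZ libraries. rpoA, the alpha subunit, had 13, 4 and 5 reads in the MZ, 1, 11 and 91 in the EZ, and 2, 4 and 1 in the DZ. rpoA, rpoC1 and rpoC2 did not pass the filter on low values and were not tested.

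Of the ribosomal protein genes, rpl16 had 7.52, 2.53 and 1.43 RPKM in the MZ, 4.60, 2.97 and 34.3 RPKM in the EZ, and 4.00, 1.06 and 1.04 RPKM in the DZ. Its 192 reads in EZ3 were 70.6% of all its reads. rpl32 had 16.5, 7.27 and 47.0 RPKM in the MZ, 15.7, 17.1 and 27.4 RPKM in the EZ, and 8.77, 5.42 and 3.19 RPKM in the DZ. Its DZ libraries were below all EZ libraries, on 1, 2 and 1 reads against 2, 6 and 10, while MZ2 lay between the DZ values.

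Photosynthesis genes were detected at low levels in every zone. psbA had 9, 8 and 6 reads in the MZ, 6, 11 and 50 in the EZ, and 5, 18 and 12 in the DZ. rbcL had 1.88, 0.342 and 0.340 RPKM in the MZ, 1.79, 0.586 and 1.16 RPKM in the EZ, and 0.761, 0.470 and 0.415 RPKM in the DZ, and its zones overlapped. psaA, a core protein of photosystem I, had 5 to 26 reads a library outside EZ3 and 63 in EZ3. atpA, the alpha subunit of the ATP synthase, had 2 to 13 reads outside EZ3 and 108 in EZ3, and petA, cytochrome f, had 2 to 11 and 96. In the same sense atpI, a membrane subunit of the ATP synthase, had 0 to 7 and 24 reads, and clpP, the proteolytic subunit of the Clp protease, 2 to 17 and 108. In the NDH complex, which moves electrons around photosystem I, ndhC had 0 to 2 reads outside EZ3 and 7 in EZ3, and ndhH 0 to 9 and 51.

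The highest mean RPKM values of several classes rested on single reads. petN, a small subunit of the cytochrome b6f complex with 90 coding bases, reached 64.2 RPKM in MZ1 on its only read. psbM, a small subunit of photosystem II, had 1 read in EZ1 and 1 in DZ1, worth 34.7 and 38.8 RPKM, and psbJ, another, had 3 reads in 3 libraries. The tRNA row ATCG00390 had 1 read each in EZ1 and DZ3. Rows that fitted a length of 114 bases, shared by petG, psaI, rpl36 and the first exon of rps12, included the highest mean of all protein rows, ATCG00510, with 27 reads and 243 RPKM in EZ3 and 0 to 3 reads elsewhere. ATCG00760, of the same length, had 19 reads in EZ3 and 0 to 2 elsewhere.

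**Figure D2:**
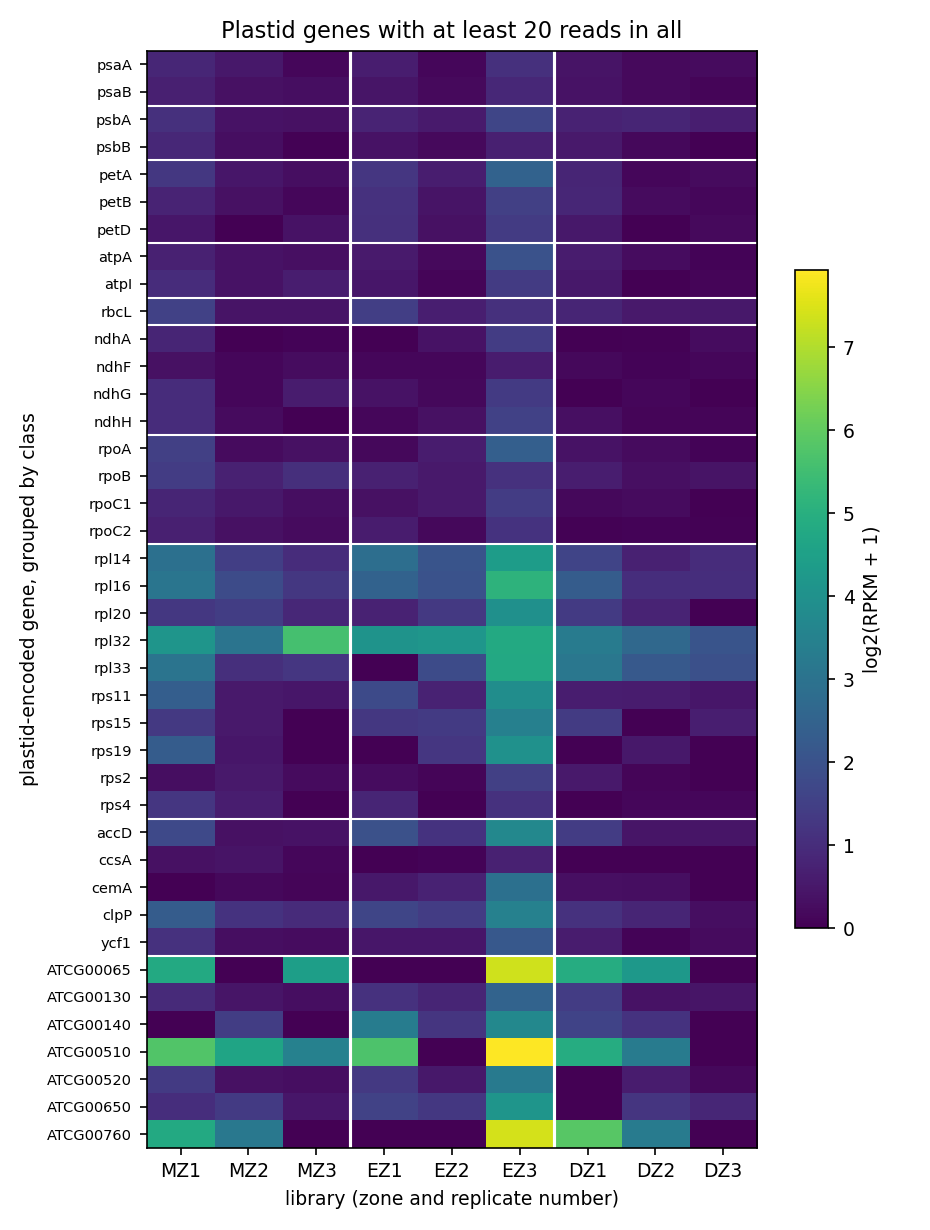
Level of 40 of the 41 plastid protein rows with a fitted length and at least 20 reads (1 row is not shown), as log2(RPKM + 1), by library. White lines part the classes and the zones; EZ3 was the highest of 9 libraries in 35 of the 40 rows shown.

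EZ3 stood apart across nearly all classes, but not evenly. It was the highest library in 47 of the 69 protein rows. Of the 41 rows with at least 20 reads, 39 were above 0 in EZ1 or EZ2, and over these its RPKM was 0.977 to 27.0 times the mean of EZ1 and EZ2, with a median of 5.75. The other 2, ATCG00065 and ATCG00760, had 18 and 19 reads in EZ3 and were listed at 0 in both. rbcL was at the low end, with a ratio of 0.977, and rpoB (2.16) and rpl32 (1.67) were also less raised, while cemA, which encodes an envelope membrane protein, reached 11.6 and rpl33, a large-subunit ribosomal protein, 21.2. By class, over rows with a fitted length, EZ3 held 23.4 ribosomal protein reads per M reads against 4.11 in EZ1 and 2.56 in EZ2. For rbcL it held 1.44 reads per M reads against 2.21 and 0.726.

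EZ3 also differed in nuclear markers of the zones. The summed RPKM of the 4 DZ markers was 547 in EZ3 against 48.4 and 65.0 in EZ1 and EZ2, and that of the 4 MZ markers was 6.72 against 35.5 and 32.6. In DZ1 to DZ3 the DZ markers summed to 4873, 3856 and 8040, so EZ3 stayed far below the DZ libraries. The 3 EZ markers summed to 1200.0 against 363 and 491. The 10 markers of green shoot tissue were all above 0 in EZ3, as in MZ3. They summed to 3.37 RPKM in EZ3, against 0.624 and 1.58 in EZ1 and EZ2 and up to 18.04 elsewhere (MZ3). The part of these differences in the plastid values was not tested.

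**Figure D3:**
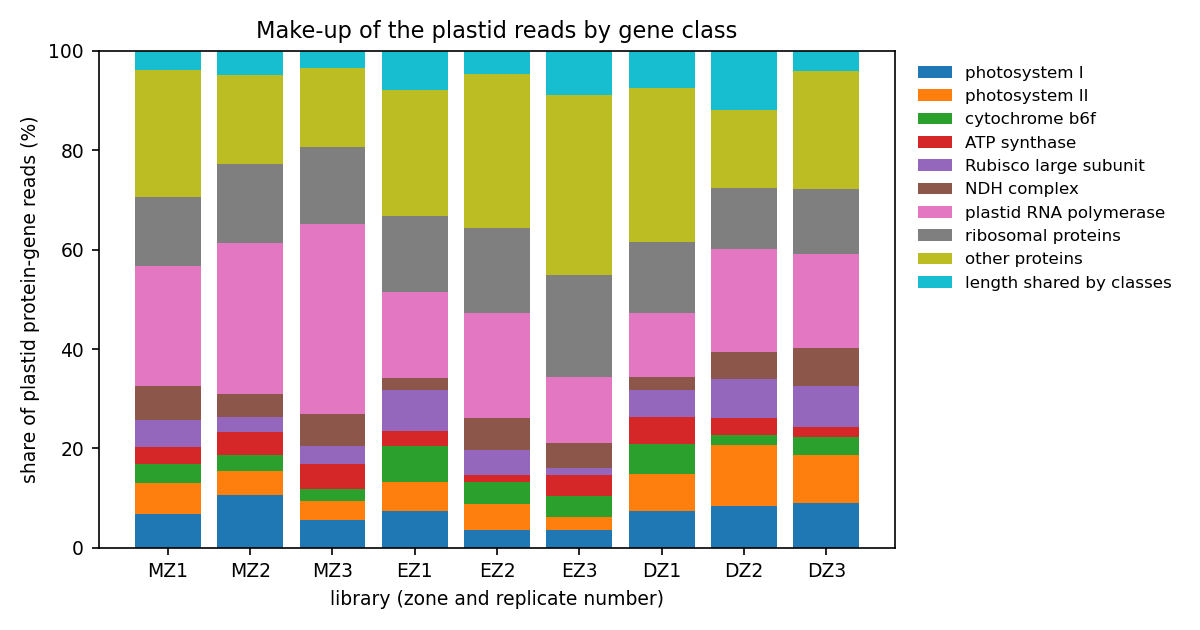
Share of the reads on plastid protein rows with a decided length that fell on each class, by library. Rows that fitted no length are left out. The RNA polymerase subunits took 24.2% to 38.1% in the MZ libraries and 12.8% to 21.1% in the EZ and DZ libraries.

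The make-up of the plastid reads was compared as shares within each library, over protein rows with a decided length. Rows that fitted no length are left out, such as ATCG00800 (23.3 RPKM in EZ3) and ATCG00470 (5.72 RPKM in MZ1 and 5.46 RPKM in DZ1). Their effect on the shares was not tested. The 4 PEP subunits took 30.9% ± 6.97 of the reads on the rows kept in the MZ, 17.2% ± 4.00 in the EZ and 17.4% ± 4.09 in the DZ (SD, n = 3 each). The lowest MZ library was above the highest of the other 6. Photosystem II genes took 4.99% ± 1.21, 4.54% ± 1.73 and 9.82% ± 2.44 (SD, n = 3 each), with all DZ libraries above all MZ and EZ libraries. These DZ shares rest on 11, 25 and 14 reads in DZ1 to DZ3, of which psbA gave 5, 18 and 12. rbcL took 4.04% ± 1.23, 4.80% ± 3.49 and 7.21% ± 1.58 (SD, n = 3 each), and its zones overlapped. The ribosomal protein share was 15.2% ± 1.06, 17.7% ± 2.68 and 13.2% ± 0.938 (SD, n = 3 each). These shares were looked at after the reads had been recovered and carry no test.

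A test per gene was possible for 37 of the 133 rows, those that reached 1 RPKM in 3 or more libraries. Both rows of each of 3 pairs with identical values are among the 37. A row was called at a Benjamini-Hochberg adjusted p under 0.05, from limma over all 19640 Arabidopsis genes tested, with at least a 2-fold change. Because the 37 passed a filter on high values, their count is not that of all members. In EZ against MZ 2 rows were called higher and 0 lower, where 18.3% and 20.4% of all genes were (38.7% in either direction). In DZ against EZ 0 were called higher and 4 lower (19.6% and 16.4% of all genes, 36% in either direction), and in DZ against MZ 1 higher and 1 lower (29.8% and 32.3%, 62.1% in either direction). The unadjusted limma p was under 0.05 in 2, 10 and 4 of the 37 rows. The median log2 change of the 37 was 0.81, -1.44 and -0.42, against 0.03, -0.13 and -0.16 over all genes tested.

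psaJ was called higher in EZ than MZ libraries, with limma adjusted p = 0.00398, and in DZ than MZ libraries, with limma adjusted p = 0.0369. It was listed at 0 in the 3 MZ libraries and had 1, 1 and 2 reads in the EZ and 0, 1 and 1 in the DZ. Together the 2 calls rest on 6 reads, and each on only part of them. ATCG00140, whose length of 246 bases is that of atpH and of psaC, was called higher in EZ than MZ libraries (2.28 ± 0.72 SE, limma adjusted p = 0.024) on 0, 3 and 0 reads against 5, 2 and 19. The call of psaJ in EZ against MZ held in all 16 other settings and that of ATCG00140 in 10 of 16, being lost without EZ3, EZ1, MZ1 or MZ3. For psaJ every setting reuses the same zeros and the same few reads. It passed the filter only through EZ and DZ libraries, so holding in all settings is no independent support for a change. The call of psaJ in DZ against MZ held in 8 of 16 and was lost with the replicate number as a block and without MZ1, MZ2, MZ3, DZ2 or DZ3.

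Of the rows that fell from EZ to DZ, 3 are described: rpl14 and rpl32 of the large ribosomal subunit, and psbK, a small subunit of photosystem II. rpl14 had 6.30, 3.19 and 20.02 RPKM in the EZ and 2.11, 0.652 and 1.02 in the DZ, and fell by 1.98 ± 0.66 on the log2(RPKM + 1) scale (SE; limma adjusted p = 0.0324). Its EZ and DZ values did not overlap.

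rpl32 fell by 1.68 ± 0.59 (SE) from EZ to DZ (limma adjusted p = 0.0414) and by 1.57 ± 0.59 (SE) from MZ to DZ (limma adjusted p = 0.0349). psbK had 1 read in each EZ library and none in the DZ (limma adjusted p = 0.0311). It passed the filter only through MZ and EZ libraries, so its call is no independent support for a fall. The calls of rpl14, rpl32 and psbK from EZ to DZ held in 10, 8 and 9 of 16 other settings, and that of rpl32 from MZ to DZ in 9 of 16. Leaving out 1 library ended the call of rpl14 in DZ against EZ for EZ1, EZ3, DZ2 or DZ3, that of rpl32 for MZ1, EZ1, EZ2, EZ3, DZ2 or DZ3, and that of psbK for EZ1, EZ2, DZ1, DZ2 or DZ3. In DZ against MZ that of rpl32 was lost without MZ1, MZ3, DZ2 or DZ3.

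Counted without a test, 13 of the 69 protein rows had all DZ libraries below all EZ libraries, or 18.8%, where 21.3% of all Arabidopsis rows above 0 did. For DZ below MZ it was 5 rows, where 36.8% of all rows did, and for EZ above MZ 3 rows, where 27% did. For EZ below MZ, DZ above EZ and DZ above MZ it was 0 rows, against 28.8%, 25.6% and 34.3% of all rows.

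The coding sequences of the members differ in their adenine content; oligo(dT), where a library uses it, anneals to adenine runs. The stretch of 30 coding bases with the most adenine is given for 4 genes as examples, adenine in capitals, 5′ to 3′ in the sense strand, from RefSeq build TAIR10.1. They lie at Pltd:57664-57693 on the plus strand (accD), Pltd:81537-81566 on the minus strand (rpl16), Pltd:55419-55448 on the plus strand (rbcL) and Pltd:740-769 on the minus strand (psbA).
accD: AAAgtAAAAAttAcAAgAtAAgAActAAtA
rpl16: AAAcAAcAtcgAggAAgActAAAAggAAtA
rbcL: tAtccAAgttgAAAgAgAtAAAttgAAcAA
psbA: gAAAccAcAgAAAAtgAAtctgctAAtgAA
The accD stretch has 19 adenines of 30, that of rpl16 has 17, and those of rbcL and psbA have 15 each. Other genes do not follow this order: ndhF has 22 with 30.3 reads per kilobase, ccsA 21 with 27.4, and rps14 19 with 39.6. Over the 50 named protein genes with 1 RefSeq entry, adenine made up 21.1% to 40.4% of the coding sequence. The longest run of adenines was 2 to 14 bases, with the longest in rpoA. Across these 50 genes, adenine share and log2 of reads per kilobase plus 1 had Pearson r = 0.56 and Spearman rho = 0.57, and 0.33 and 0.40 without EZ3. The correlations describe genes that share libraries, depth and base composition, and ribosomal protein genes, which are rich in adenine, are among those with the most reads. The longest run alone had r = 0.31, and the most adenines in 30 bases had r = 0.36, or 0.18 without EZ3.

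**Figure D4:**
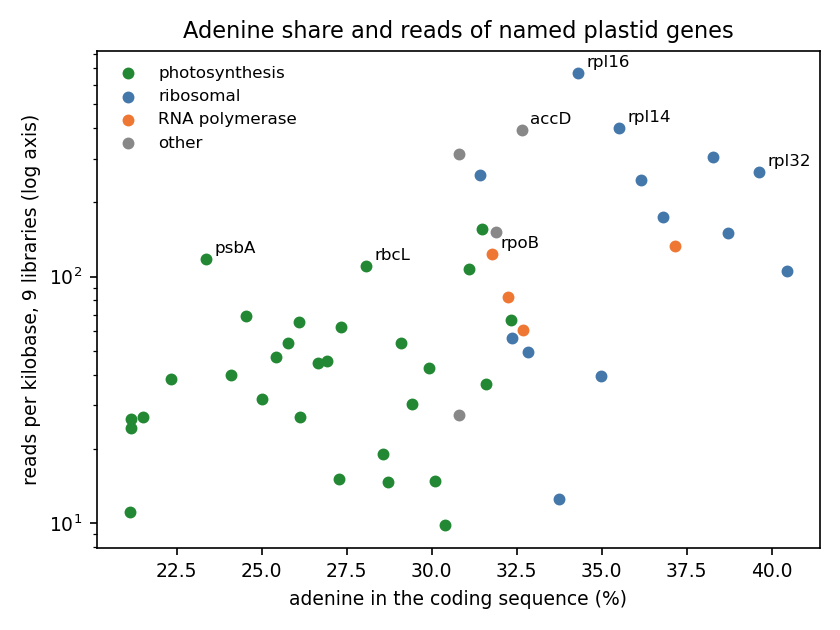
Adenine share of the coding sequence (x axis) against reads per kilobase summed over 9 libraries (y axis, log) for 50 named plastid genes. Genes of photosynthesis lie to the left and ribosomal protein genes to the right, with rpl16 at 667 with EZ3 and at 196 without it.

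Nuclear genes whose products work in plastids were taken from the same fit. Of the 44 nuclear photosystem and light-harvesting genes on the list, 37 passed the filter and were tested. In DZ against MZ 28 of the 37 were called higher and 0 lower, where 29.8% and 32.3% of all genes were. Some of the 37, such as PSBQ2, passed the filter only through the DZ libraries. For those the filter fixed the direction, so their calls are no independent support for a rise. PSBR, a photosystem II protein, rose from 3.20 ± 0.938 to 159 ± 43.8 RPKM (SD, n = 3; limma adjusted p = 7.25e-05), PSAD1, a photosystem I protein, from 0.721 ± 0.539 to 37.2 ± 11.4 RPKM, and PSBX, of photosystem II, from 21.4 ± 3.50 to 58.6 ± 13.4 RPKM. In DZ against EZ 30 of the 37 were called higher and 1 lower, where 19.6% and 16.4% of all genes were, and in EZ against MZ 2 higher and 1 lower (18.3% and 20.4%).

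Nuclear genes for the machinery of plastid gene expression were mostly lower in both the EZ and the DZ than in the MZ. In EZ against MZ 11 of 12 PEP-associated proteins and 21 of 29 plastid ribosomal proteins were called lower, where 20.4% of all genes were, and in DZ against EZ 0 of 12 and 2 of 29 (16.4%). In DZ against MZ 11 of the 12 PEP-associated proteins were called lower, where 32.3% of all genes were, PAP10 (thioredoxin z) from 24.7 ± 0.601 to 2.49 ± 0.605 RPKM, PAP4 (the superoxide dismutase FSD3) from 25.4 ± 2.22 to 2.93 ± 1.81 RPKM and PAP8 from 20.4 ± 1.21 to 6.18 ± 1.97 RPKM (SD, n = 3), while PAP12 went from 30.1 to 15.3 RPKM and missed the 2-fold. Of the 29 plastid ribosomal proteins 26 were called lower and 0 higher in DZ against MZ (32.3% and 29.8% of all genes), with PRPL13 falling from 63.9 ± 1.31 to 11.5 ± 4.56 RPKM, PRPL9 from 34.4 ± 2.22 to 5.71 ± 2.07 RPKM and PRPL29 from 93.5 ± 15.9 to 29.97 ± 10.003 RPKM (SD, n = 3). PRPL17, at 62.9 and 36.3 RPKM, was not called.

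Among sigma factors and phage-type polymerases 1 of 7 tested was called higher and 3 lower in DZ against MZ. Over all genes 29.8% and 32.3% were, and 7 genes are too few for a close comparison. SIG5 rose from 2.26 ± 0.738 to 23.4 ± 4.64 RPKM (SD, n = 3; limma adjusted p = 6.61e-05), and RPOTmp, a phage-type polymerase of plastids and mitochondria, fell from 12.7 ± 1.13 to 1.54 ± 0.631 RPKM (limma adjusted p = 0.000106). RPOTp, another phage-type polymerase, went from 11.5 ± 1.56 to 2.28 ± 0.539 RPKM (SD, n = 3). SIG1 went from 5.79 to 9.30 RPKM and was not called. Of 3 greening regulators tested, GLK2 rose from 3.06 ± 0.956 to 12.7 ± 2.19 RPKM (SD, n = 3; limma adjusted p = 0.00452), and HY5, at 64.5 and 79.6 RPKM, and GUN1, at 31.6 and 49.5 RPKM, were not called.

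**Figure D5:**
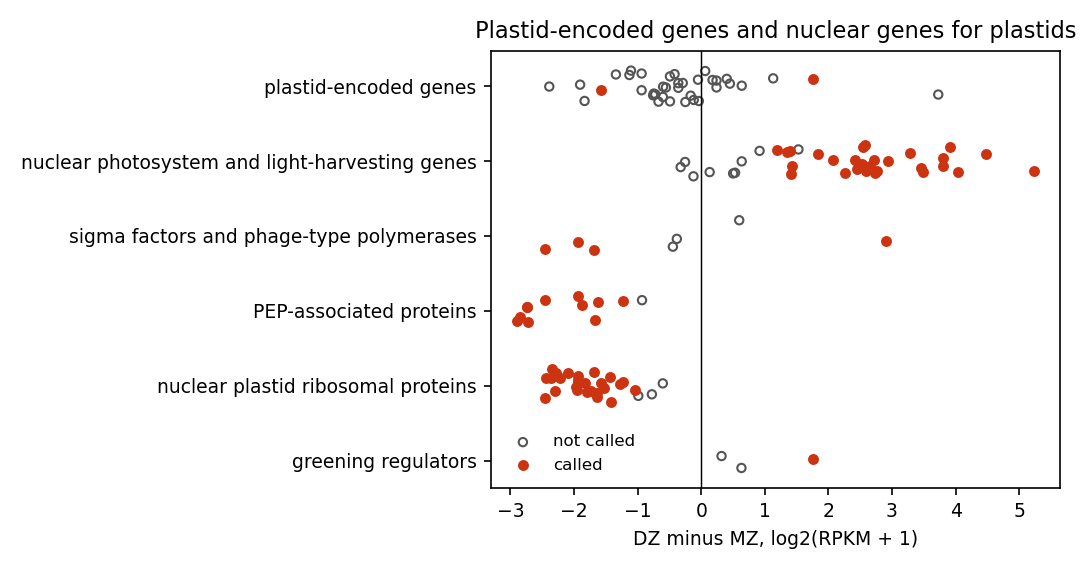
Change from MZ to DZ on the log2(RPKM + 1) scale (x axis) of the 37 plastid-encoded rows tested and of nuclear genes for plastids, by list; filled points were called. Called nuclear photosystem genes all lie above 0, and called PEP-associated and plastid ribosomal proteins all lie below 0.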

How the data were processed

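RNA-seq of 3 Arabidopsis root zones, 3 libraries each, was analysed. The authors deposited RPKM values per gene. FastQC and TopHat2 were run, per the submitters' processing notes, versions not given. Reads were mapped with the TAIR10 annotation, per the labels. The labels name no counting tool or filter. The columns stack several species, and rows were taken by Arabidopsis locus names. The 6 columns of the other deposited table were not used.

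Reads per row and depth were recovered from RPKM steps: a read was taken to be worth the inverse of depth times an effective length, for fragments with mean 200 and SD 80 bases cut at 30 and 440. The cuts were the best of a grid by the number of single-transcript nuclear gene values whose worth of 1 read coincided within 0.0001 (2442, against 1938 for the next best). A row was named where its reads were whole within 0.001 for the RefSeq length needing the fewest reads, where any longer fitting length would need all its counts to be multiples of a common number, at odds of 100 or more against chance, and where 1 gene name had that length. The 3 pairs of rows with identical values were counted once among the protein rows and in their sums. Counts of rows above 0, of rows fitting no length, of rows tested and of rows called include both rows of a pair. Protein rows are those whose shortest fitting length is a protein gene's, and rows that fit none.

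Genes that reached 1 RPKM in 3 or more libraries were tested by limma 3.58.1 (R 4.3.3), with a pseudocount of 1 before log2, all 9 libraries in 1 fit, mean trend and robust moderation. Fold changes on this scale understate those of low genes. Sums were compared by exact permutation. The code was tested on simulated data. Named members were, per class, the 2 with the highest mean RPKM, the called members, the PEP subunits and accD; genes with the most reads, and those set beside EZ3, were chosen after their values were seen. The length model, the naming rule, which replaced an earlier one, and the definition of protein rows, which was narrowed once its first sums included undecided short rows, were also settled after the values were seen. Per nuclear list, the 2 highest and the 2 with the largest called change were named, and RPOTp was added with its values known. Of the called members, 1 is not reported here. The members and lists were chosen with earlier results of these data known. The design text calls the libraries biological replicates. Deviations from zone means of same-numbered libraries correlated at 0.183 to 0.305 between MZ and EZ, 0.136 to 0.458 between EZ and DZ and 0.088 to 0.142 between MZ and DZ. These values were above 0.1 in both comparisons with the EZ and fell short of it in 1 pair of the third. They were not set against those of differently numbered libraries, so whether the numbers pair the libraries was not tested. No label says what same-numbered libraries share, and results were fitted without and with the block.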

Additional observations from a re-analysis of the deposited data

How the results depend on the processing

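Summed RPKM depended on EZ3, and short rows with few reads weighed heavily in the sum. On the log2 scale EZ minus MZ (0.82) ranged from -0.12, without EZ3, to 1.63 when single libraries were left out, and was -0.26 without the 3 libraries numbered 3. DZ minus EZ (-1.58) ranged from -2.39 to -0.64 and was 0.018 without the libraries numbered 3. DZ minus MZ (-0.76) ranged from -1.39 to -0.10. The settings without the libraries numbered 3 or numbered 1, and with reads scaled to depth in place of RPKM, were chosen after seeing the data; the last gave 0.91, -1.94 and -1.04, with or without the replicate block.

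Counts of called rows were unstable. EZ against MZ (2 rows) gave 1 to 6 with single libraries left out, 4 with a mean of at least 1 RPKM as the filter and 4 without the libraries numbered 1. Of the last 4, ATCG00470 and ATCG00480 have identical values. DZ against EZ (4 rows) gave 1 to 12, 8 with quantile normalization and 1 without the libraries numbered 1. DZ against MZ (2 rows) gave 0 to 3, 5 with pseudocount 0.1, 6 with quantile normalization, 1 with no filter, 0 without the libraries numbered 3 and 1 without those numbered 1. The cause was not tested. With the replicate number as a block the sums were unchanged at 0.82, -1.58 and -0.76 and the counts at 2, 4 and 2, but in DZ against MZ the 2 rows were both lower and psaJ was no longer called. A single read over 1 kilobase equals 0.0408 to 0.148 RPKM, depending on the library, which limits what the shallow libraries numbered 1 resolve.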

Other observations

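Mitochondrion-encoded rows (IDs starting with ATMG) were also sparse: 51 of 145 were above 0 in any library, and 18 passed the filter. Of these 18, 1 was called in DZ against MZ, where 62.1% of all genes were (32.3% lower). It was ATMG00660, which fell by 1.03 ± 0.30 (SE) on the log2(RPKM + 1) scale from MZ to DZ (limma adjusted p = 0.0119). In EZ against MZ and in DZ against EZ 0 were called, where 38.7% and 36% of all genes were. The plastid sum over protein rows was highest in EZ3. So was that over all plastid rows, at 1528 RPKM with both rows of identical pairs included. The mitochondrial sum, over all ATMG rows, was not at its highest in EZ3. It was 2511, 745 and 345 RPKM in MZ1 to MZ3, 2042, 968 and 1331 RPKM in EZ1 to EZ3, and 1719, 1409 and 727 RPKM in DZ1 to DZ3. The 2 highest rows, ATMG00030 and ATMG01390, had means of 535 and 339 RPKM. ATMG00020 had a mean of 304 RPKM, so that a few rows carried most of the mitochondrial sum. The sum therefore says little about the other rows. ATMG00080 and ATMG00090, which have identical values, were highest in EZ3, at 32.4 RPKM against 18.6 RPKM in MZ1. So was ATMG00070, at 13.99 RPKM against 8.35 RPKM in MZ1, while most of the 18 rows that passed the filter were not.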
